A study of Mus musculus with 12 samples.

Results

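Solute carriers are membrane proteins that move small molecules, ions and vitamins across the plasma membrane and the membranes of organelles, each family being numbered after the Slc gene symbol. They work as uniporters, as cotransporters that use the gradient of sodium or protons, or as exchangers that swap a substrate on either side. In dendritic cells and macrophages they are known for feeding amino acids, sugars and lactate into metabolism and for releasing the products of digested cells from the phagosome and lysosome into the cytosol. The genes described here were all rows of the expression table whose Entrez identifier carries a mouse symbol of Slc followed by a digit, without Slc45a2, Slc2a1, Slc2a3, Slc7a11, Slc40a1 and Slc11a1. That rule gave 202 of the 11786 genes, out of 208 with such a symbol. It uses names and no measured value.

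RNA was sequenced from mouse dendritic cells that GM-CSF, a cytokine, induces in cultured bone marrow, which gives a culture of dendritic cells mixed with macrophages and granulocytes. Libraries fell into 4 groups of 2: cells of mice labelled Ythdf1-/- with tumour lysate, cells of mice labelled Ythdf1-/- alone, wild-type cells with tumour lysate and wild-type cells alone. Lysate means overnight culture with necrotic cells of B16-OVA, a mouse melanoma line made to carry ovalbumin, followed by purification of the dendritic cells. Ythdf1 is a protein that reads the mRNA mark N6-methyladenosine, and the question was how transcript levels in dendritic cells depend on it. The sources used here give no allele, strain or age of the mice. The labels do not tell whether a group's 2 libraries stem from different mice or cultures, so p-values reflect the spread between these samples alone, and that spread may be technical.

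Values are log2 levels on the authors' scale, read as a regularized logarithm of read counts, which pulls low genes towards their mean and so understates fold changes. A gene was called higher or lower where the adjusted p of limma (Benjamini-Hochberg over 11785 genes tested) was below 0.05. All 202 solute carrier genes passed the filter on low values. Changes carry the standard error of the fit (n = 2 libraries a group). The depth of the libraries is unknown, since no counts were used.

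The Ythdf1 transcript itself was not lower by the test in libraries labelled Ythdf1-/- (-0.16 ± 0.081 with lysate, adjusted p = 0.202, and -0.03 ± 0.081 alone, adjusted p = 0.85), so every direction between genotypes rests on the labels. Of 9 measured dendritic cell markers none lay below 6 in every library; 6 were lower with lysate in Ythdf1-/- cells and 5 in wild-type cells, and 5 were higher in Ythdf1-/- cells with lysate and 4 in Ythdf1-/- cells alone, where 1, Itgax, was lower (-0.33). All 10 neutrophil markers were lower in Ythdf1-/- libraries in both treatments, with a log2 summed level of 13.24 to 13.37 in the 4 Ythdf1-/- libraries and 14.36 to 14.52 in the 4 wild-type libraries. Of 10 macrophage and monocyte markers 3 were lower in Ythdf1-/- cells with lysate and 6 in Ythdf1-/- cells alone. Lysate lowered 1 in Ythdf1-/- cells and 5 in wild-type cells, and it raised 1, Fcgr1, in both (0.60 and 0.58). The table held 4 of 8 mast cell and basophil markers, 1 of 8 erythroid, 0 of 5 B cell and 2 of 6 T and NK cell markers. Of these, Hdc was lower in Ythdf1-/- cells with lysate (-0.37) and alone (-0.68), and Gata2 was higher with lysate (0.39). Cpa3, Slc18a2 and the erythroid marker Slc25a37, the last 2 being solute carrier genes, were not called. Cd4 and Cd8a were lower with lysate in wild-type cells (-0.46 and -0.30). Cd4, below 6 in every library, was also lower in Ythdf1-/- cells alone (-0.30). All 5 measured pigment cell genes were higher with lysate in both genotypes. Dct and Tyrp1, which define melanocytes, lay between 5.71 and 6.25 in the 4 lysate libraries and between 4.75 and 4.92 in the 4 libraries without lysate. With lysate both were called higher in Ythdf1-/- than in wild-type cells, Dct by 0.29 and Tyrp1 by 0.38. Pmel, Mitf and Gpnmb were not called between genotypes. In the libraries without lysate Pmel lay between 5.44 and 5.50. Mitf lay there between 9.60 and 9.97 and Gpnmb between 16.02 and 16.17, so both were present without lysate. In bulk RNA, fewer cells of a type and less RNA per cell cannot be told apart, and the part of these cell types in the results below was not tested.

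The level of solute carrier genes spanned the range of the table. Their mean log2 level over the 8 libraries lay between 4.01 and 14.25 with a median of 8.37, against a median of 8.53 over all genes. Per kilobase of the longest transcript, the only scale on which levels of different genes are compared here, the median was 6.39. Slc6a6, the sodium-driven taurine transporter, had the highest log2 level per kilobase (11.62). It was followed by Slc3a2 (10.97), the heavy chain that brings amino acid exchangers to the cell surface. Next were Slc25a5 (10.77), which exchanges ADP and ATP across the inner mitochondrial membrane, and Slc48a1 (10.53), which carries haem out of the phagolysosome. Slc15a3, a peptide and histidine transporter of the endolysosome, came after these (10.40). At the other end, Slc1a2, a glutamate transporter best known from astrocytes, stood at 0.65. Class medians ran from 5.06 for 5 nucleoside carriers to 6.63 for 40 mitochondrial carriers, with a median of 7.13 for 4 genes named for a transporter without being one.

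**Figure D1:**
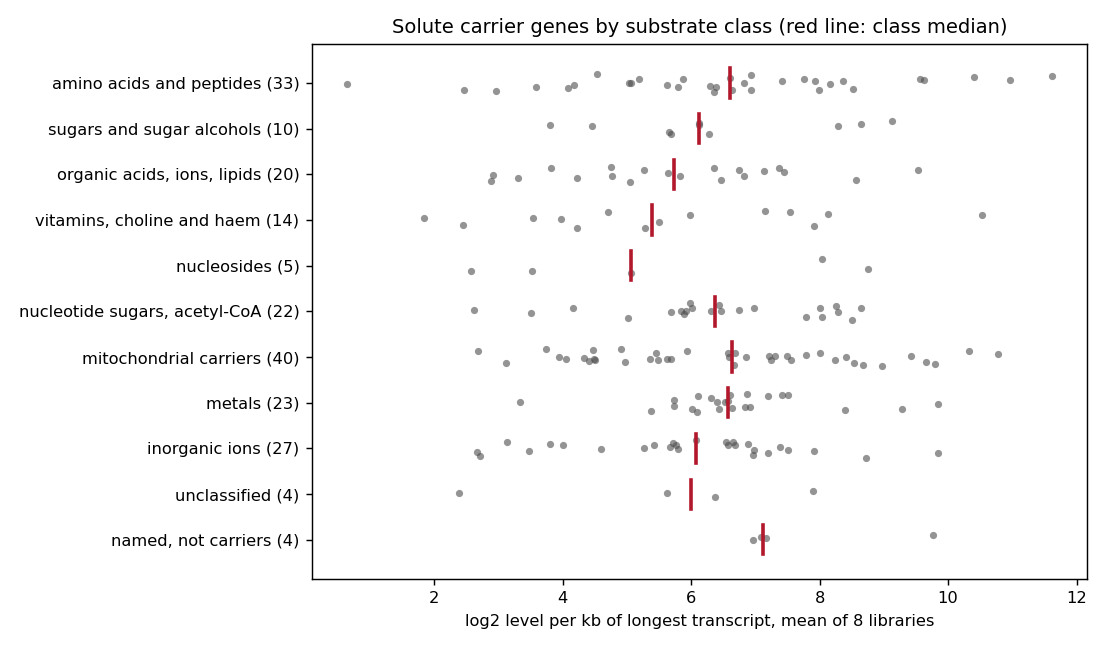
Mean log2 level per kilobase of the longest transcript over the 8 libraries (x axis) for each of the 202 genes (grey points), by substrate class with the number of genes in brackets; red lines are class medians, and vertical scatter within a class has no meaning. Within the 33 amino acid and peptide carriers the levels run from 0.65 to 11.62, so each large class mixes high and low genes.

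Lysate changed solute carriers in both directions and by less than 2-fold. In Ythdf1-/- cells 23 of 202 genes were higher with lysate (11.4%, against 8.28% of all genes tested) and 12 were lower (5.9%, against 6.92%). In wild-type cells 23 were higher (11.4%, against 10.2%) and 20 were lower (9.9%, against 11.3%). These shares lie near those of the whole table, and the median change of the list was 0.05 in Ythdf1-/- cells and 0.02 in wild-type cells. In both genotypes 15 genes were higher, which is 65.2% of each list. Lower in both were 10 genes, which is 83.3% of the Ythdf1-/- list and 50.0% of the wild-type list. None was called in opposite directions in the genotypes. Over the 202 genes the change in Ythdf1-/- cells and the change in wild-type cells, which share no library, had a Pearson r of 0.80 and a Spearman rho of 0.75 across genes, which are not independent replicates. Neither this overlap nor this correlation was computed over all genes, so neither is shown to be particular to solute carriers. Counts depended on single libraries. In Ythdf1-/- cells 35 calls in all became 12 when Ythdf1-/- lysate replicate 2 was left out, 13 for Ythdf1-/- lysate replicate 1 and 20 for Ythdf1-/- alone replicate 1. In wild-type cells 43 became 16 when wild-type alone replicate 2 was left out and 20 for wild-type lysate replicate 1.

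**Figure D2:**
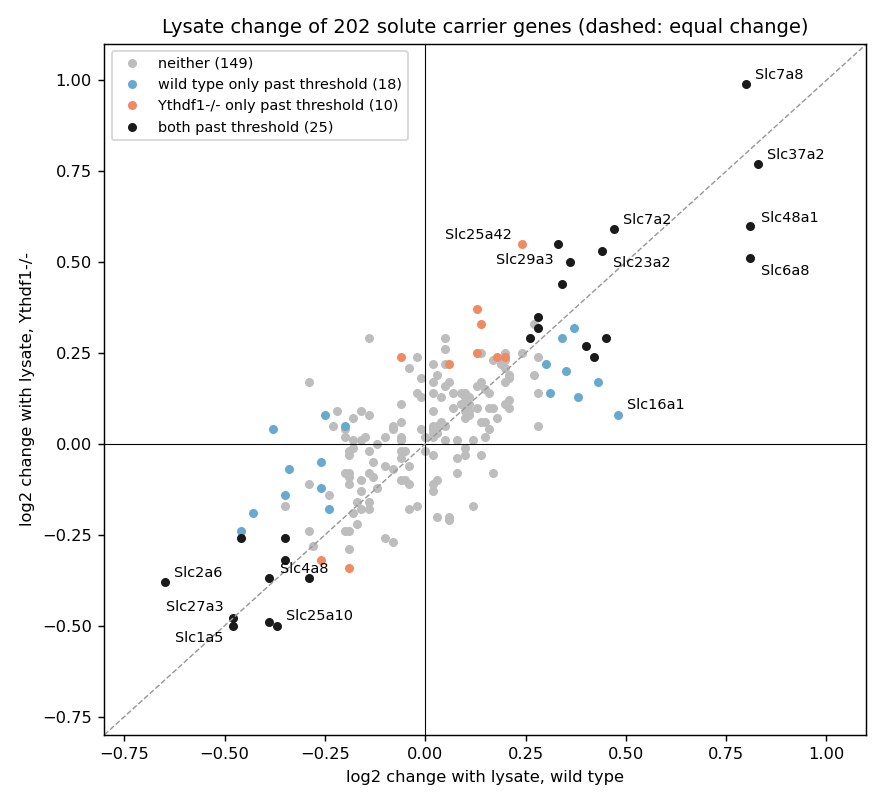
Log2 change with lysate in Ythdf1-/- cells (y axis) against that in wild-type cells (x axis) for 202 solute carrier genes; colour shows in which genotype a gene passed the threshold and the dashed line marks equal change. The 25 genes past the threshold in both lie in the upper right or lower left, with Slc7a8 at 0.99 and 0.80 and Slc2a6 at -0.38 and -0.65.

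The promoters of 5 genes of the lysate and genotype results are printed here because these genes moved together in both genotypes: Slc7a8, Slc37a2 and Slc23a2 rose with lysate, and Slc4a8 and Slc27a3 fell. Each is the 250 bases before the annotated start of the gene, 5′ to 3′ on the gene's strand, from RefSeq on GRCm38.p6; capitals mark a match to the AP-1 motif.
Slc7a8, chr14:54781887-54782136, minus strand: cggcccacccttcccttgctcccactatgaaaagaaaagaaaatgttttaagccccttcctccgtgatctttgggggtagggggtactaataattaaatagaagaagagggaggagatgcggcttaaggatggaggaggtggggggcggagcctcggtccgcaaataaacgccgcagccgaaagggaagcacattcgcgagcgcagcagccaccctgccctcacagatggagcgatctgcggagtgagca
Slc37a2, chr9:37255739-37255988, minus strand: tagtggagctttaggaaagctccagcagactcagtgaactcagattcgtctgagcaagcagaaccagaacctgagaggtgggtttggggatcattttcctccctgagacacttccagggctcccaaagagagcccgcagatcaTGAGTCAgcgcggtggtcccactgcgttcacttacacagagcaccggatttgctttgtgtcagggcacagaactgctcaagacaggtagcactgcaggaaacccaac
Slc23a2, chr2:132145321-132145570, minus strand: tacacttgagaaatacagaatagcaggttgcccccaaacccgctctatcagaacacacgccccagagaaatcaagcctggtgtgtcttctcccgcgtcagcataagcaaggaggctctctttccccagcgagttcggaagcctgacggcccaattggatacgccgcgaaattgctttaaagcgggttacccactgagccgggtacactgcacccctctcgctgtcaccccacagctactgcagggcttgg
Slc4a8, chr15:100761497-100761746, plus strand: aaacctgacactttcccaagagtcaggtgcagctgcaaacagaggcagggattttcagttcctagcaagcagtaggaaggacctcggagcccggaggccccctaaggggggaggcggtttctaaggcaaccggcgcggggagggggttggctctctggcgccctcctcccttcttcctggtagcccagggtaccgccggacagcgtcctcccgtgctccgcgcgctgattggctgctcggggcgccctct
Slc27a3, chr3:90389939-90390188, minus strand: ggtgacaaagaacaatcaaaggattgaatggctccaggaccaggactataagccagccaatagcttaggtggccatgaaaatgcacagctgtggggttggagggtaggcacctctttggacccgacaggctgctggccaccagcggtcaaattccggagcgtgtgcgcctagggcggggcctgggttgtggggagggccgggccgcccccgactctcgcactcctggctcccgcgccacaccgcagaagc

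Promoters were found for 153 of the 202 genes, with a median GC content of 61.6%, against 59.6% over 9427 genes of the table and 52.0% over 27025 promoters in all. Of 4 motifs searched on both strands, the antioxidant response element core TGACNNNGC was in 16.3% of the solute carrier promoters, in 12.1% of the promoters of genes of the table and in 10.1% of all promoters. The E-box CACGTG was in 11.8%, 8.59% and 6.05% of these sets, the ATF4 composite element TGATGNAA in 3.27%, 2.0% and 3.53%, and the AP-1 motif TGAGTCA in 3.92%, 3.0% and 4.43%. These shares were not tested against each other. The AP-1 motif was added after the letters of these promoters had been seen. No motif overlaps another in the 5 sequences, since the match in Slc37a2, at 107 to 101 bases before the start, is the only one among them. A match is a description of letters and no evidence of binding.

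In Ythdf1-/- cells the highest rise was that of an amino acid transporter, Slc7a8. Of 33 carriers of amino acids and peptides, 5 were higher (15.2%) and 3 lower (9.1%) with lysate in Ythdf1-/- cells. In wild-type cells 4 were higher (12.1%) and 6 lower (18.2%). The shares of all genes were 8.28% and 6.92% in Ythdf1-/- cells and 10.2% and 11.3% in wild-type cells. No class was tested as a set. Slc7a8, which encodes the light chain of a neutral amino acid exchanger, stood at 12.00 and 12.04 in Ythdf1-/- lysate libraries, at 11.09 and 10.96 in Ythdf1-/- libraries alone, at 12.22 and 12.15 in wild-type lysate libraries and at 11.32 and 11.45 in wild-type libraries alone. Every lysate library lay above every library without lysate. It rose with lysate by 0.99 ± 0.072 in Ythdf1-/- cells (1.99-fold, limma adjusted p = 3.08e-06) and by 0.80 ± 0.072 in wild-type cells (1.74-fold, adjusted p = 1.05e-05).

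Slc7a2, the inducible carrier of arginine and other cationic amino acids, read 9.74 and 9.72 in Ythdf1-/- lysate libraries, 9.18 and 9.11 in Ythdf1-/- libraries alone, 10.06 and 9.89 in wild-type lysate libraries and 9.55 and 9.45 in wild-type libraries alone. Within each genotype the lysate libraries were the higher ones. The rise was 0.59 ± 0.079 in Ythdf1-/- cells (adjusted p = 0.000357) and 0.47 ± 0.079 in wild-type cells (adjusted p = 0.00128). Slc6a8, which takes up creatine together with sodium and chloride, had log2 levels of 10.59 and 10.62 in Ythdf1-/- lysate libraries, 10.10 and 10.08 in Ythdf1-/- libraries alone, 10.74 and 10.79 in wild-type lysate libraries and 9.93 and 9.98 in wild-type libraries alone. All 4 lysate libraries lay above the 4 others. Slc6a8 rose by 0.51 ± 0.066 in Ythdf1-/- cells (adjusted p = 0.000256) and by 0.81 ± 0.066 in wild-type cells (adjusted p = 4.92e-06). These 6 calls of Slc7a8, Slc7a2 and Slc6a8 held with each library left out in turn. Slc6a6, the highest of all per kilobase, was higher with lysate in Ythdf1-/- cells by 0.22 ± 0.063 (adjusted p = 0.0322), a call lost on leaving out Ythdf1-/- lysate replicate 1 (adjusted p = 0.226), Ythdf1-/- lysate replicate 2 (adjusted p = 0.115), Ythdf1-/- alone replicate 1 (adjusted p = 0.0831) or Ythdf1-/- alone replicate 2 (adjusted p = 0.119), and its change in wild-type cells was 0.06 ± 0.063 (adjusted p = 0.503).

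The glutamine and serine carriers Slc1a5 and Slc1a4 fell with lysate. Slc1a5, which exchanges glutamine and other neutral amino acids, stood at 10.00 and 9.92 in Ythdf1-/- lysate libraries and 10.53 and 10.39 in Ythdf1-/- libraries alone, and at 9.46 and 9.68 in wild-type lysate libraries and 10.04 and 10.06 in wild-type libraries alone. The lysate libraries were lower within each genotype, without overlap, and the Ythdf1-/- lysate libraries lay just below wild-type cells alone. Slc1a5 fell by 0.50 ± 0.085 in Ythdf1-/- cells (adjusted p = 0.00189) and by 0.48 ± 0.085 in wild-type cells (adjusted p = 0.00185). Its relative Slc1a4, a carrier of serine and alanine, fell by 0.32 ± 0.095 in Ythdf1-/- cells (adjusted p = 0.0358) and by 0.35 ± 0.095 in wild-type cells (adjusted p = 0.0197). The Slc1a4 call in Ythdf1-/- cells was lost on leaving out Ythdf1-/- lysate replicate 1 (adjusted p = 0.23), Ythdf1-/- lysate replicate 2 (adjusted p = 0.103), Ythdf1-/- alone replicate 1 (adjusted p = 0.0748) or Ythdf1-/- alone replicate 2 (adjusted p = 0.0808). In wild-type cells it was lost on leaving out wild-type lysate replicate 1 (adjusted p = 0.173), wild-type alone replicate 1 (adjusted p = 0.0954) or wild-type alone replicate 2 (adjusted p = 0.0567). Slc36a1, which exports amino acids from the lysosome with protons, changed by 0.08 ± 0.068 in Ythdf1-/- cells (adjusted p = 0.475) and fell by 0.25 ± 0.068 in wild-type cells (adjusted p = 0.019), where its call was lost on leaving out wild-type lysate replicate 1 (adjusted p = 0.108) or wild-type alone replicate 2 (adjusted p = 0.114).

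Among 10 carriers of sugars, 1 was higher and 1 lower with lysate, the same genes in both genotypes. Each is 10.0% of the class, against 8.28% higher and 6.92% lower of all genes in Ythdf1-/- cells and 10.2% and 11.3% in wild-type cells. Slc37a2 encodes an exchanger of glucose-6-phosphate for phosphate in the endoplasmic reticulum, known for its high level in macrophages. Its log2 level was 11.55 and 11.53 in Ythdf1-/- lysate libraries, 10.76 and 10.78 in Ythdf1-/- libraries alone, 11.63 and 11.74 in wild-type lysate libraries and 10.82 and 10.89 in wild-type libraries alone. Every library with lysate lay above every library without it. It rose by 0.77 ± 0.066 in Ythdf1-/- cells (1.7-fold, adjusted p = 1.17e-05) and by 0.83 ± 0.066 in wild-type cells (1.78-fold, adjusted p = 3.92e-06). Slc2a6, a member of the glucose transporter family that sits on lysosomes, stood at 10.37 and 10.32 in Ythdf1-/- lysate libraries, 10.82 and 10.62 in Ythdf1-/- libraries alone, 10.20 and 10.33 in wild-type lysate libraries and 10.86 and 10.98 in wild-type libraries alone. Here every lysate library lay below every library without lysate. Slc2a6 fell by 0.38 ± 0.083 in Ythdf1-/- cells (adjusted p = 0.00839) and by 0.65 ± 0.083 in wild-type cells (adjusted p = 0.000182), the first call being lost on leaving out Ythdf1-/- lysate replicate 1 (adjusted p = 0.0675), Ythdf1-/- lysate replicate 2 (adjusted p = 0.0963) or Ythdf1-/- alone replicate 1 (adjusted p = 0.064).

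Of 14 carriers of vitamins, choline and haem, 2 were higher with lysate in Ythdf1-/- cells (14.3%, against 8.28% of all genes) and 3 in wild-type cells (21.4%, against 10.2%). None was lower, against 6.92% and 11.3% of all genes, and in a class of 14 such counts set nothing apart. Slc48a1, the haem carrier, had 12.11 and 12.15 in Ythdf1-/- lysate libraries, 11.59 and 11.45 in Ythdf1-/- libraries alone, 12.36 and 12.28 in wild-type lysate libraries and 11.48 and 11.54 in wild-type libraries alone. The lysate libraries did not overlap with the others. Its rise was 0.60 ± 0.07 in Ythdf1-/- cells (adjusted p = 0.00014) and 0.81 ± 0.07 in wild-type cells (adjusted p = 8.01e-06). Slc23a2, the sodium-driven uptake carrier of vitamin C, read 11.05 and 11.03 in Ythdf1-/- lysate libraries, 10.51 and 10.50 in Ythdf1-/- libraries alone, 11.11 and 10.98 in wild-type lysate libraries and 10.64 and 10.58 in wild-type libraries alone. Treatment parted the libraries without overlap, and with lysate the genotypes overlapped. Slc23a2 rose by 0.53 ± 0.069 in Ythdf1-/- cells (adjusted p = 0.000262) and by 0.44 ± 0.069 in wild-type cells (adjusted p = 0.000825). Slc19a1, the carrier of reduced folates, changed by 0.32 ± 0.1 in Ythdf1-/- cells (adjusted p = 0.0522). In wild-type cells it rose by 0.37 ± 0.1 (adjusted p = 0.0211), a call lost on leaving out wild-type lysate replicate 2 (adjusted p = 0.14), wild-type alone replicate 1 (adjusted p = 0.106) or wild-type alone replicate 2 (adjusted p = 0.0513).

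**Figure D3:**
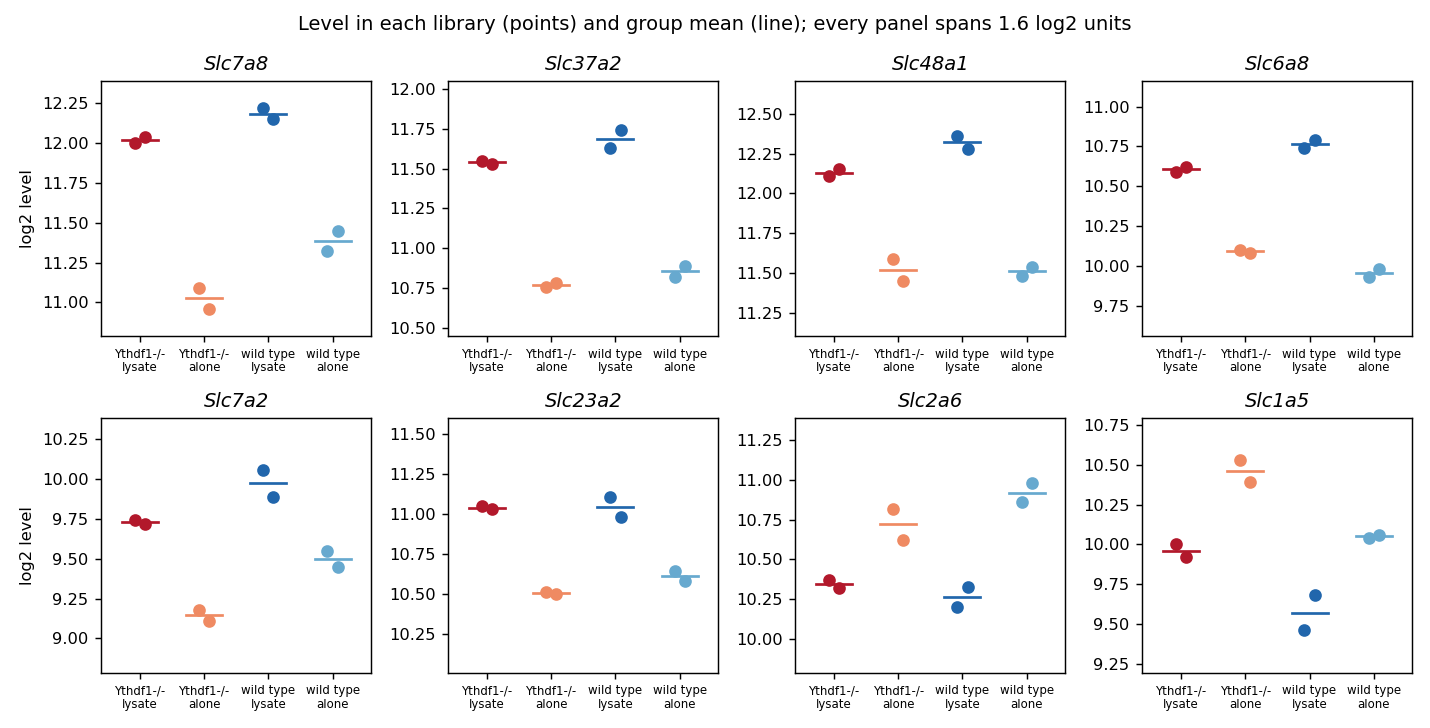
Log2 level of 8 solute carrier genes in each library (points) with the mean of 2 libraries (lines), in Ythdf1-/- cells with lysate and alone and in wild-type cells with lysate and alone from left to right; every panel spans the same range. Lysate libraries lie above the untreated libraries of their genotype in Slc7a8, Slc37a2, Slc48a1, Slc6a8, Slc7a2 and Slc23a2 and below them in Slc2a6 and Slc1a5.

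Carriers of organic acids, organic ions and lipids gave 3 higher and 2 lower of 20 in Ythdf1-/- cells, and 5 higher and 2 lower in wild-type cells. Of all genes 8.28% were higher and 6.92% lower in Ythdf1-/- cells, and 10.2% and 11.3% in wild-type cells. This class of 20 was not tested against these shares. Slc27a3, of the fatty acid transport protein family that couples fatty acids to coenzyme A, stood at 10.86 and 10.93 in Ythdf1-/- lysate libraries, 11.44 and 11.31 in Ythdf1-/- libraries alone, 10.23 and 10.41 in wild-type lysate libraries and 10.72 and 10.89 in wild-type libraries alone. It was lower with lysate within each genotype and higher in Ythdf1-/- libraries within each treatment, without overlap. With lysate it fell by 0.48 ± 0.084 in Ythdf1-/- cells (adjusted p = 0.00211) and by 0.48 ± 0.084 in wild-type cells (adjusted p = 0.00159). Slc22a4, which takes up the antioxidant ergothioneine, rose by 0.44 ± 0.086 in Ythdf1-/- cells (adjusted p = 0.0042) and by 0.34 ± 0.086 in wild-type cells (adjusted p = 0.0142). The first Slc22a4 call was lost on leaving out Ythdf1-/- lysate replicate 1 (adjusted p = 0.0856) and the second on leaving out wild-type lysate replicate 2 (adjusted p = 0.0904) or wild-type alone replicate 2 (adjusted p = 0.111). Slc16a1, a proton-coupled carrier of lactate and pyruvate, read 7.34 and 7.49 in Ythdf1-/- lysate libraries, 7.33 and 7.35 in Ythdf1-/- libraries alone, 7.66 and 7.71 in wild-type lysate libraries and 7.23 and 7.19 in wild-type libraries alone. The wild-type lysate pair lay above the other 6 libraries. The change of Slc16a1 was 0.08 ± 0.087 in Ythdf1-/- cells (adjusted p = 0.598), and it rose by 0.48 ± 0.087 in wild-type cells (adjusted p = 0.00209). The difference between these effects, -0.40 ± 0.12, did not pass the test (adjusted p = 0.369).

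Slc29a3 was the nucleoside carrier called with lysate, 1 of 5 (20.0%, against 8.28% of all genes higher in Ythdf1-/- cells and 10.2% in wild-type cells). It releases nucleosides from the lysosome and stood at 11.24 and 11.30 in Ythdf1-/- lysate libraries, 10.67 and 10.77 in Ythdf1-/- libraries alone, 11.60 and 11.30 in wild-type lysate libraries and 11.14 and 11.12 in wild-type libraries alone. Untreated Ythdf1-/- libraries were the lowest, and within each genotype the lysate pair was higher. It rose by 0.55 ± 0.088 in Ythdf1-/- cells (adjusted p = 0.00124) and by 0.33 ± 0.088 in wild-type cells (adjusted p = 0.0195), the second call being lost on leaving out wild-type lysate replicate 1 (adjusted p = 0.202) or wild-type alone replicate 2 (adjusted p = 0.0959).

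Mitochondrial carriers, the Slc25 family, gave 4 higher (10.0%) and 2 lower (5.0%) of 40 in Ythdf1-/- cells. In wild-type cells 4 were higher (10.0%) and 3 lower (7.5%). The shares of all genes were 8.28% and 6.92% in Ythdf1-/- cells and 10.2% and 11.3% in wild-type cells. Slc25a42, which brings coenzyme A into mitochondria, had 8.01 and 7.97 in Ythdf1-/- lysate libraries, 7.59 and 7.29 in Ythdf1-/- libraries alone, 7.43 and 7.36 in wild-type lysate libraries and 7.11 and 7.20 in wild-type libraries alone. The Ythdf1-/- lysate pair was the highest of the 4 groups. Its change was a rise of 0.55 ± 0.1 in Ythdf1-/- cells (adjusted p = 0.00298), beside 0.24 ± 0.1 in wild-type cells (adjusted p = 0.106). Slc25a5, the ADP and ATP exchanger, rose by 0.29 ± 0.093 in Ythdf1-/- cells (adjusted p = 0.0496) and by 0.45 ± 0.093 in wild-type cells (adjusted p = 0.00438). The first call was lost on leaving out Ythdf1-/- lysate replicate 1 (adjusted p = 0.0923), Ythdf1-/- lysate replicate 2 (adjusted p = 0.353), Ythdf1-/- alone replicate 1 (adjusted p = 0.249), wild-type lysate replicate 1 (adjusted p = 0.0551) or wild-type lysate replicate 2 (adjusted p = 0.0552), and the second on leaving out wild-type alone replicate 2 (adjusted p = 0.0508). Slc25a10, which exchanges dicarboxylates such as malate for phosphate, fell by 0.50 ± 0.11 in Ythdf1-/- cells (adjusted p = 0.0066) and by 0.37 ± 0.11 in wild-type cells (adjusted p = 0.0257). Its call in Ythdf1-/- cells was lost on leaving out Ythdf1-/- lysate replicate 1 (adjusted p = 0.0782) or Ythdf1-/- lysate replicate 2 (adjusted p = 0.0681), and that in wild-type cells on leaving out Ythdf1-/- lysate replicate 1 (adjusted p = 0.0544), Ythdf1-/- lysate replicate 2 (adjusted p = 0.0543), wild-type lysate replicate 1 (adjusted p = 0.226) or wild-type alone replicate 2 (adjusted p = 0.226). Slc25a3, the phosphate carrier of the inner membrane and among the highest of the family, changed by 0.03 ± 0.071 in Ythdf1-/- cells (adjusted p = 0.834) and by 0.02 ± 0.071 in wild-type cells (adjusted p = 0.889).

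The 22 carriers of nucleotide sugars and related substrates into the Golgi and endoplasmic reticulum gave 3 higher (13.6%) and 1 lower (4.5%) in Ythdf1-/- cells. In wild-type cells 2 were higher and 2 lower (9.1% each). The shares of all genes were 8.28% and 6.92% in Ythdf1-/- cells and 10.2% and 11.3% in wild-type cells. Slc35f6, a lysosomal member of the family, rose by 0.27 ± 0.069 in Ythdf1-/- cells (adjusted p = 0.02), a call lost on leaving out Ythdf1-/- lysate replicate 1 (adjusted p = 0.157), Ythdf1-/- lysate replicate 2 (adjusted p = 0.115) or Ythdf1-/- alone replicate 2 (adjusted p = 0.103), and by 0.40 ± 0.069 in wild-type cells (adjusted p = 0.00147). Slc35b1, which exchanges ATP and ADP in the endoplasmic reticulum, rose by 0.24 ± 0.076 in Ythdf1-/- cells (adjusted p = 0.0477), a call lost whichever of the 8 libraries was left out, with an adjusted p between 0.0509 and 0.282. In wild-type cells it rose by 0.42 ± 0.076 (adjusted p = 0.00214), with libraries at 9.50 and 9.59 with lysate and at 9.11 and 9.15 alone.

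Of 23 metal carriers 2 were higher in Ythdf1-/- cells (8.7%, against 8.28% of all genes) and 3 in wild-type cells (13.0%, against 10.2%). None was lower, against 6.92% and 11.3% of all genes. Slc31a1, the copper importer, rose by 0.32 ± 0.074 in Ythdf1-/- cells (adjusted p = 0.0109) and by 0.28 ± 0.074 in wild-type cells (adjusted p = 0.0173). Its calls were lost on leaving out Ythdf1-/- lysate replicate 1 (adjusted p = 0.117), Ythdf1-/- lysate replicate 2 (adjusted p = 0.0717) or Ythdf1-/- alone replicate 1 (adjusted p = 0.0602) in Ythdf1-/- cells, and on leaving out wild-type lysate replicate 1 (adjusted p = 0.0957), wild-type lysate replicate 2 (adjusted p = 0.0506) or wild-type alone replicate 2 (adjusted p = 0.164) in wild-type cells. Of 27 carriers of inorganic ions, 2 were higher and 2 lower in Ythdf1-/- cells (7.4% each, against 8.28% and 6.92% of all genes). In wild-type cells 0 were higher and 5 lower (0.0% and 18.5%, against 10.2% and 11.3%), and the class median was -0.16. Slc4a8, an exchanger that brings sodium and bicarbonate in for chloride, fell by 0.37 ± 0.066 in Ythdf1-/- cells (adjusted p = 0.00239), a call lost on leaving out Ythdf1-/- lysate replicate 2 (adjusted p = 0.0591), and by 0.39 ± 0.066 in wild-type cells (adjusted p = 0.00144). Slc12a9, a member of the cation and chloride cotransporter family, changed by -0.19 ± 0.087 in Ythdf1-/- cells (adjusted p = 0.168) and fell by 0.43 ± 0.087 in wild-type cells (adjusted p = 0.00401), a call lost on leaving out wild-type alone replicate 2 (adjusted p = 0.0609). Slc22a23, an organic ion family member with no settled substrate, fell by 0.26 ± 0.074 in Ythdf1-/- cells (adjusted p = 0.0299), a call lost on leaving out Ythdf1-/- lysate replicate 2 (adjusted p = 0.289) or Ythdf1-/- alone replicate 1 (adjusted p = 0.109), and by 0.46 ± 0.074 in wild-type cells (adjusted p = 0.00101).

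The lysate change was weakly related to base composition. Across the 202 genes Spearman's rho between the change with lysate and the GC content of the transcript was -0.24 in Ythdf1-/- cells and -0.42 in wild-type cells, so that genes poorer in G and C lay higher. Over all genes the difference of replicate 1 minus replicate 2 was related to GC content as well, with rho of -0.11 in Ythdf1-/- cells with lysate, 0.62 in Ythdf1-/- cells alone, -0.25 in wild-type cells with lysate and -0.70 in wild-type cells alone. A fit to values freed of their dependence on transcript GC content and length made 57 solute carrier calls with lysate in Ythdf1-/- cells and 63 in wild-type cells. The main fit called 15.2% and 21.5% of all genes, and this fit 25.1% and 28.4%. Of 26 calls with lysate named by rule in Ythdf1-/- cells 0 were lost in that fit. Of 32 in wild-type cells 1 was lost, the fall of Slc43a2, a carrier of large neutral amino acids (-0.20 ± 0.064, adjusted p = 0.0437), which was also lost on leaving out Ythdf1-/- lysate replicate 1 (adjusted p = 0.0819), Ythdf1-/- lysate replicate 2 (adjusted p = 0.0816), wild-type lysate replicate 1 (adjusted p = 0.146), wild-type lysate replicate 2 (adjusted p = 0.099), wild-type alone replicate 1 (adjusted p = 0.0529) or wild-type alone replicate 2 (adjusted p = 0.283).

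No solute carrier gene passed the limma test of the difference between the lysate effects of the genotypes, for which 13 of all genes tested were called (0.11%). At an unadjusted p below 0.05 there were 14 of 202 (6.9%, against 8.3% of all genes). The lowest p was that of Slc36a1 (0.33 ± 0.096, adjusted p = 0.344). In values freed of their dependence on GC content and length 1 gene was called. The difference needs all 4 groups, so the fit of only the groups compared gave no value, and each other alternative gave 0. A gene past the threshold in a single genotype is therefore not shown to respond differently.

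Between genotypes the solute carriers were again near the background. With lysate 15 of 202 genes were higher in Ythdf1-/- cells (7.4%, against 7.44% of all genes) and 9 were lower (4.5%, against 5.45%). Without lysate 16 were higher (7.9%, against 7.02%) and 23 were lower (11.4%, against 9.23%). The median change of the list was 0.00 with lysate and -0.04 without. In both treatments 10 genes were higher, which is 66.7% of the list with lysate and 62.5% of that without, and 5 were lower, which is 55.6% and 21.7%. None was called in opposite directions. The change with lysate and the change without, which share no library, had a Pearson r of 0.74 and a Spearman rho of 0.68 across the 202 genes. Here too the overlap and the correlation were not computed over all genes. With lysate 24 calls became 4 when Ythdf1-/- lysate replicate 1 was left out, 10 for Ythdf1-/- lysate replicate 2, 10 for wild-type lysate replicate 1 and 12 for wild-type lysate replicate 2. Without lysate 39 calls became 25 when wild-type alone replicate 2 was left out. Values freed of their dependence on GC content and length gave another split with lysate, 21 higher and 33 lower. That fit called 22.4% of all genes, against 12.9% in the main fit. GC content and length were removed together, so their parts cannot be told apart.

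**Figure D4:**
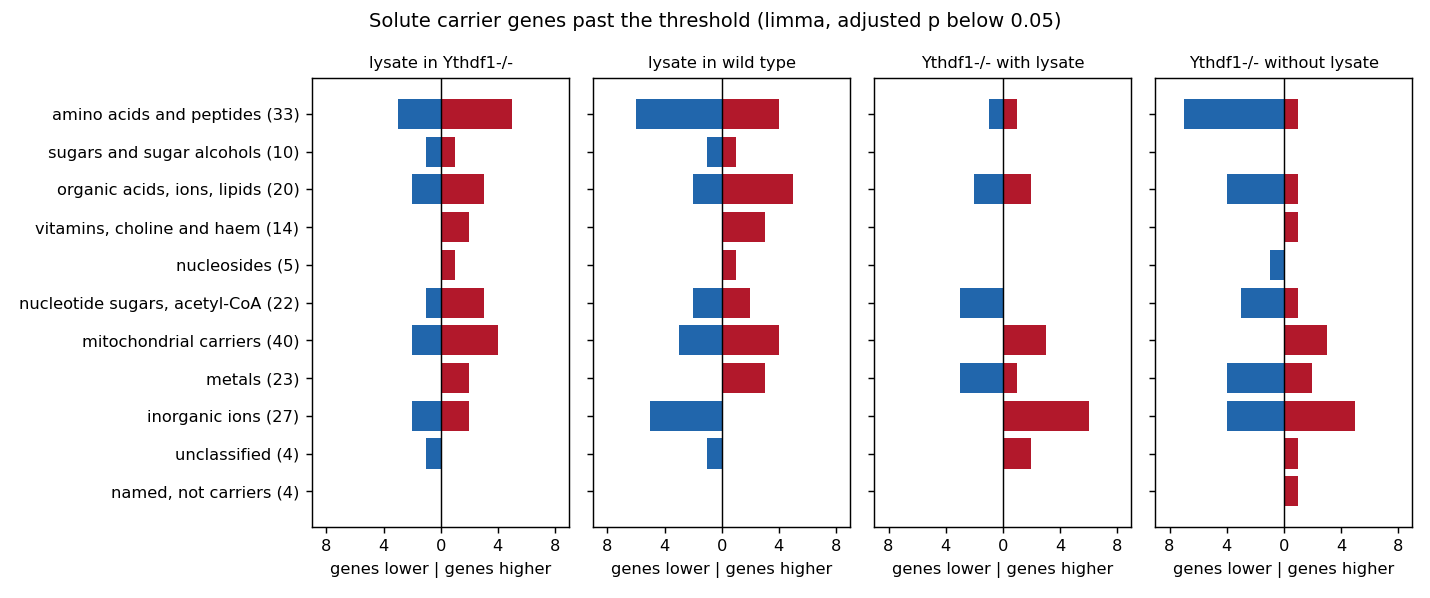
Number of solute carrier genes past the threshold in each substrate class (rows, with the number of genes in brackets), higher to the right in red and lower to the left in blue, for lysate in Ythdf1-/- and in wild-type cells and for Ythdf1-/- against wild type with and without lysate. Inorganic ion carriers show 6 higher and 0 lower in Ythdf1-/- cells with lysate and 5 higher and 4 lower without it.

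Of 27 inorganic ion carriers, 6 were higher and 0 lower in Ythdf1-/- cells with lysate (22.2% and 0.0%, against 7.44% and 5.45% of all genes). Without lysate 5 were higher and 4 lower (18.5% and 14.8%, against 7.02% and 9.23%). Slc4a8 stood at 11.12 and 11.02 in Ythdf1-/- lysate libraries, 11.45 and 11.44 in Ythdf1-/- libraries alone, 10.44 and 10.43 in wild-type lysate libraries and 10.80 and 10.85 in wild-type libraries alone. All 4 Ythdf1-/- libraries lay above all 4 wild-type libraries. It was higher in Ythdf1-/- cells by 0.64 ± 0.066 with lysate (1.55-fold, adjusted p = 0.000148) and by 0.62 ± 0.066 without (1.54-fold, adjusted p = 5.63e-05), and both calls held with each library left out. Its relative Slc4a3, a chloride and bicarbonate exchanger, was higher by 0.49 ± 0.1 with lysate (adjusted p = 0.00824) and 0.44 ± 0.1 without (adjusted p = 0.0104). The first Slc4a3 call was lost on leaving out Ythdf1-/- lysate replicate 1 (adjusted p = 0.133) or wild-type lysate replicate 1 (adjusted p = 0.0804), and the second on leaving out wild-type alone replicate 2 (adjusted p = 0.0518).

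Slc9a5, a sodium and proton exchanger, was higher by 0.34 ± 0.093 with lysate (adjusted p = 0.0296), a call lost on leaving out Ythdf1-/- lysate replicate 1 (adjusted p = 0.112), Ythdf1-/- lysate replicate 2 (adjusted p = 0.192) or wild-type lysate replicate 2 (adjusted p = 0.188), and by 0.50 ± 0.093 without (adjusted p = 0.0024). Slc12a5, a potassium and chloride cotransporter known from neurons, was low, at 5.89 and 6.02 in Ythdf1-/- lysate libraries, 5.95 and 5.93 in Ythdf1-/- libraries alone, 5.61 and 5.45 in wild-type lysate libraries and 5.57 and 5.45 in wild-type libraries alone. The Ythdf1-/- libraries were nonetheless the higher ones throughout. Its change was 0.43 ± 0.094 with lysate (adjusted p = 0.0106) and 0.43 ± 0.094 without (adjusted p = 0.00711). With lysate its call was lost on leaving out Ythdf1-/- lysate replicate 1 (adjusted p = 0.0606), Ythdf1-/- lysate replicate 2 (adjusted p = 0.0949) or wild-type lysate replicate 2 (adjusted p = 0.0885) and in values freed of their dependence on GC content and length, and without lysate on leaving out wild-type alone replicate 2 (adjusted p = 0.0655). Slc20a1, the phosphate importer with the highest level per kilobase of the class (9.85), was higher by 0.27 ± 0.073 with lysate (adjusted p = 0.0288) and 0.24 ± 0.073 without (adjusted p = 0.0382). The calls of Slc20a1 were lost on leaving out Ythdf1-/- lysate replicate 1 (adjusted p = 0.299), Ythdf1-/- lysate replicate 2 (adjusted p = 0.0785), wild-type lysate replicate 1 (adjusted p = 0.163) or wild-type lysate replicate 2 (adjusted p = 0.0511) with lysate, and on leaving out Ythdf1-/- lysate replicate 1 (adjusted p = 0.0662), Ythdf1-/- lysate replicate 2 (adjusted p = 0.066), Ythdf1-/- alone replicate 2 (adjusted p = 0.15), wild-type alone replicate 1 (adjusted p = 0.0543) or wild-type alone replicate 2 (adjusted p = 0.214) without lysate.

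Among metal carriers 1 was higher (4.3%) and 3 lower (13.0%) of 23 in Ythdf1-/- cells with lysate. Without lysate 2 were higher (8.7%) and 4 lower (17.4%). The shares of all genes were 7.44% and 5.45% with lysate and 7.02% and 9.23% without. Slc41a1, a magnesium transporter, stood at 9.93 and 9.92 in Ythdf1-/- lysate libraries, 9.96 and 9.92 in Ythdf1-/- libraries alone, 9.49 and 9.46 in wild-type lysate libraries and 9.63 and 9.60 in wild-type libraries alone. The genotypes did not overlap. It was higher by 0.45 ± 0.068 with lysate (adjusted p = 0.00126) and 0.32 ± 0.068 without (adjusted p = 0.00542), and both calls held with each library left out. Slc39a1, a zinc importer of the plasma membrane, read 10.91 and 10.95 in Ythdf1-/- lysate libraries, 10.91 and 10.88 in Ythdf1-/- libraries alone, 11.31 and 11.23 in wild-type lysate libraries and 11.23 and 11.25 in wild-type libraries alone. Here all 4 Ythdf1-/- libraries were below all 4 wild-type libraries. Its change was -0.34 ± 0.065 with lysate (adjusted p = 0.00504), lost on leaving out Ythdf1-/- lysate replicate 1 (adjusted p = 0.104), and -0.35 ± 0.065 without (adjusted p = 0.00245). Slc31a1, the copper importer, changed by -0.26 ± 0.074 with lysate (adjusted p = 0.0372), lost on leaving out Ythdf1-/- lysate replicate 1 (adjusted p = 0.187), Ythdf1-/- lysate replicate 2 (adjusted p = 0.186), wild-type lysate replicate 1 (adjusted p = 0.139) or wild-type lysate replicate 2 (adjusted p = 0.101), and by -0.30 ± 0.074 without (adjusted p = 0.0137), lost on leaving out Ythdf1-/- alone replicate 1 (adjusted p = 0.0672) or wild-type alone replicate 1 (adjusted p = 0.118). Slc31a2, which acts on copper in endosomes, changed by -0.25 ± 0.079 with lysate (adjusted p = 0.054) and was lower without, with a change of -0.38 ± 0.079 (adjusted p = 0.00553).

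Amino acid carriers gave 1 higher and 1 lower of 33 in Ythdf1-/- cells with lysate (3.0% each). Without lysate 1 was higher (3.0%) and 7 were lower (21.2%). The shares of all genes were 7.44% and 5.45% with lysate and 7.02% and 9.23% without. The gene lower in both treatments was Slc16a10, a carrier of aromatic amino acids and thyroid hormone, at 9.12 and 9.24 in Ythdf1-/- lysate libraries, 9.07 and 8.90 in Ythdf1-/- libraries alone, 9.75 and 9.55 in wild-type lysate libraries and 9.65 and 9.58 in wild-type libraries alone. The genotypes did not overlap. Its change was -0.47 ± 0.089 with lysate (adjusted p = 0.00501), lost on leaving out Ythdf1-/- lysate replicate 1 (adjusted p = 0.114) or wild-type lysate replicate 1 (adjusted p = 0.059), and -0.63 ± 0.089 without (1.55-fold lower, adjusted p = 0.000392). Slc43a2, named above for large neutral amino acids, stood at 12.29 and 12.30 in Ythdf1-/- lysate libraries, 12.28 and 12.20 in Ythdf1-/- libraries alone, 12.43 and 12.44 in wild-type lysate libraries and 12.59 and 12.67 in wild-type libraries alone. The wild-type libraries were the higher ones in each treatment. Its change was -0.14 ± 0.064 with lysate (adjusted p = 0.167) and -0.39 ± 0.064 without (adjusted p = 0.00121).

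Of the 15 genes higher with lysate in both genotypes, 2 were lower in Ythdf1-/- cells with lysate and 5 without it; these contrasts share libraries, so nothing is read from the counts. Without lysate, Slc7a8 differed by -0.36 ± 0.072 (adjusted p = 0.00418), Slc7a2 by -0.36 ± 0.079 (adjusted p = 0.00753) and Slc29a3 by -0.41 ± 0.088 (adjusted p = 0.00649). The Slc7a2 call was lost on leaving out wild-type alone replicate 1 (adjusted p = 0.0606). Slc36a1 differed by -0.40 ± 0.068 without lysate (adjusted p = 0.0014), and Slc6a12, a carrier of betaine and GABA at a low level here, by -0.54 ± 0.12 (adjusted p = 0.00582). Slc1a5 was higher in Ythdf1-/- cells by 0.39 ± 0.085 with lysate (adjusted p = 0.0101) and 0.41 ± 0.085 without (adjusted p = 0.0048). With lysate its call was lost on leaving out Ythdf1-/- lysate replicate 1 (adjusted p = 0.154), Ythdf1-/- lysate replicate 2 (adjusted p = 0.0586) or wild-type lysate replicate 1 (adjusted p = 0.0924).

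Of 20 carriers of organic acids, organic ions and lipids, 2 were higher and 2 lower in Ythdf1-/- cells with lysate (10.0% each). Without lysate 1 was higher (5.0%) and 4 were lower (20.0%). The shares of all genes were 7.44% and 5.45% with lysate and 7.02% and 9.23% without. Slc27a3, whose values are given with the lysate results, was higher by 0.58 ± 0.084 with lysate (adjusted p = 0.001) and 0.57 ± 0.084 without (adjusted p = 0.000498), and both calls held with each library left out. Slc16a3, the carrier through which glycolytic cells export lactate, was lower without lysate, at 9.32 and 9.23 in Ythdf1-/- libraries alone and 9.70 and 9.85 in wild-type libraries alone. Its change was -0.25 ± 0.088 with lysate (adjusted p = 0.0732) and -0.50 ± 0.088 without (adjusted p = 0.00186). Slc16a1 was not called between genotypes, with a change of -0.27 ± 0.087 with lysate (adjusted p = 0.0576) and 0.13 ± 0.087 without (adjusted p = 0.349). Bsg and Emb, which are not Slc genes but encode partner proteins of some monocarboxylate carriers, were both lower in Ythdf1-/- cells. Bsg changed by -0.33 with lysate (adjusted p = 0.00915) and -0.23 without (adjusted p = 0.045), and Emb by -0.39 (adjusted p = 0.00499) and -0.48 (adjusted p = 0.000683). Whether the calls of Bsg and Emb held with a library left out was not examined. Slc10a3, an orphan of the bile acid carrier family, was lower in both treatments, with a change of -0.36 ± 0.084 with lysate (adjusted p = 0.0142), lost on leaving out Ythdf1-/- lysate replicate 1 (adjusted p = 0.125), Ythdf1-/- lysate replicate 2 (adjusted p = 0.083) or wild-type lysate replicate 2 (adjusted p = 0.0885), and of -0.34 ± 0.084 without (adjusted p = 0.0154), lost on leaving out Ythdf1-/- alone replicate 1 (adjusted p = 0.0719) or wild-type alone replicate 2 (adjusted p = 0.102).

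Golgi and endoplasmic reticulum carriers gave 0 higher (0.0%) and 3 lower (13.6%) of 22 in Ythdf1-/- cells with lysate. Without lysate 1 was higher (4.5%) and 3 were lower (13.6%). The shares of all genes were 7.44% and 5.45% with lysate and 7.02% and 9.23% without. Slc35c1, which brings GDP-fucose into the Golgi, stood at 8.15 and 8.19 in Ythdf1-/- lysate libraries, 8.20 and 8.25 in Ythdf1-/- libraries alone, 8.44 and 8.48 in wild-type lysate libraries and 8.69 and 8.76 in wild-type libraries alone. Every Ythdf1-/- library lay below every wild-type library. Its change was -0.29 ± 0.078 with lysate (adjusted p = 0.0269), lost on leaving out Ythdf1-/- lysate replicate 1 (adjusted p = 0.206), Ythdf1-/- lysate replicate 2 (adjusted p = 0.108), wild-type lysate replicate 1 (adjusted p = 0.0817) or wild-type lysate replicate 2 (adjusted p = 0.115), and -0.50 ± 0.078 without (adjusted p = 0.000777). The gene higher without lysate was Slc33a1, the acetyl-CoA carrier of the endoplasmic reticulum (0.35 ± 0.08, adjusted p = 0.00903), lost on leaving out Ythdf1-/- alone replicate 2 (adjusted p = 0.0738) or wild-type alone replicate 2 (adjusted p = 0.0748).

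Of 40 mitochondrial carriers 3 were higher and 0 lower in Ythdf1-/- cells in each treatment, a share of 7.5%, near the 7.44% with lysate and 7.02% without of all genes. Slc25a38, a glycine carrier needed for haem synthesis, was higher in Ythdf1-/- cells by 0.58 ± 0.11 with lysate (adjusted p = 0.0039), lost on leaving out Ythdf1-/- lysate replicate 1 (adjusted p = 0.0939), and by 0.36 ± 0.11 without (adjusted p = 0.0366), lost on leaving out Ythdf1-/- lysate replicate 1 (adjusted p = 0.0675), Ythdf1-/- lysate replicate 2 (adjusted p = 0.0673), Ythdf1-/- alone replicate 1 (adjusted p = 0.136) or wild-type alone replicate 1 (adjusted p = 0.301). Slc25a42 was higher by 0.60 ± 0.1 with lysate (adjusted p = 0.00248), lost on leaving out Ythdf1-/- lysate replicate 1 (adjusted p = 0.0616), beside 0.29 ± 0.1 without (adjusted p = 0.0726). Slc25a37, which imports iron into mitochondria and is also an erythroid marker, was not called in any comparison, and neither was Slc18a2, a vesicular monoamine carrier of mast cells and basophils. Of 10 carriers of sugars 0 were called between genotypes in either treatment. Of all genes 7.44% were higher and 5.45% lower with lysate, and 7.02% and 9.23% without. Slc22a23 was higher in Ythdf1-/- cells by 0.61 ± 0.074 with lysate (adjusted p = 0.000336) and 0.41 ± 0.074 without (adjusted p = 0.00204), with libraries at 10.76 and 10.58 in Ythdf1-/- cells with lysate, 10.95 and 10.92 in Ythdf1-/- cells alone, 10.03 and 10.10 in wild-type cells with lysate and 10.53 and 10.51 in wild-type cells alone. Both calls held with each library left out, and the genotypes did not overlap.

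**Figure D5:**
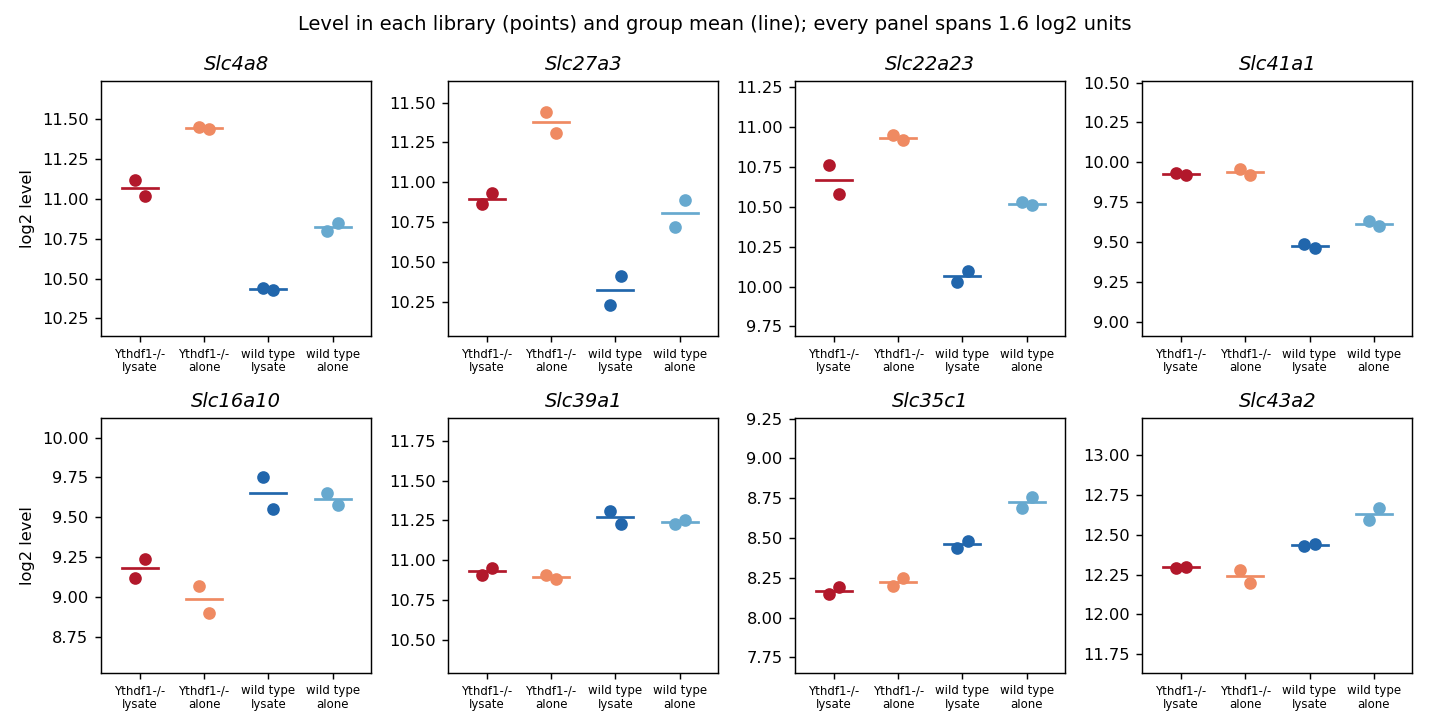
Log2 level of 8 solute carrier genes in each library (points) with the mean of 2 libraries (lines), in Ythdf1-/- cells with lysate and alone and in wild-type cells with lysate and alone from left to right; every panel spans the same range. Slc4a8, Slc27a3, Slc22a23 and Slc41a1 lie higher and Slc16a10, Slc39a1, Slc35c1 and Slc43a2 lower in Ythdf1-/- libraries than in wild-type libraries of the same treatment.

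Slc4a8, Slc27a3, Slc22a23 and Slc1a5 passed the test in all 4 comparisons, as 4 of the 10 genes lower with lysate in both genotypes, and were higher in Ythdf1-/- cells in both treatments. Lysate and genotype contrasts share libraries, so the values are only set side by side. On chromosome 2, which carries Ythdf1, lie 21 of the 202 genes. Of these 2 were higher and 1 lower in Ythdf1-/- cells with lysate (9.5% and 4.8%, against 7.44% and 5.45% of all genes). Without lysate 2 were higher and 5 lower (9.5% and 23.8%, against 7.02% and 9.23%). The part of position in these small counts was not tested. The nearest, Slc17a9, which loads ATP into vesicles, is separated from Ythdf1 by 1 protein-coding gene. Slc17a9 changed by 0.11 ± 0.094 with lysate (adjusted p = 0.451) and by -0.13 ± 0.094 without (adjusted p = 0.423).

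Transporters outside the Slc symbols were measured as well, among them the ABC transporters and the organic anion Slco family. Of these 48 genes, 2 were higher and 3 lower with lysate in Ythdf1-/- cells (4.2% and 6.2%, against 8.28% and 6.92% of all genes), and 4 were higher and 7 lower in wild-type cells (8.3% and 14.6%, against 10.2% and 11.3%). Against wild-type cells, 1 was higher and 4 were lower in Ythdf1-/- cells with lysate (2.1% and 8.3%, against 7.44% and 5.45%), and 1 was higher and 7 were lower in Ythdf1-/- cells alone (2.1% and 14.6%, against 7.02% and 9.23%). Counts this small set nothing apart from the whole table. Abcc5, an exporter of cyclic nucleotides and organic anions, rose with lysate by 0.42 ± 0.069 in Ythdf1-/- cells (adjusted p = 0.0015), beside 0.18 ± 0.069 in wild-type cells (adjusted p = 0.0821). Slco2b1, an organic anion uptake carrier, changed by 0.18 ± 0.069 in Ythdf1-/- cells (adjusted p = 0.0915) and rose by 0.52 ± 0.069 in wild-type cells (adjusted p = 0.000286). Flvcr1, a haem and choline transporter, changed by 0.17 ± 0.085 in Ythdf1-/- cells (adjusted p = 0.189) and rose by 0.42 ± 0.085 in wild-type cells (adjusted p = 0.00395). Among the falls, Mtch1, a protein of the outer mitochondrial membrane, changed by -0.37 ± 0.077 in Ythdf1-/- cells (adjusted p = 0.00564) and by -0.23 ± 0.077 in wild-type cells (adjusted p = 0.046). Mfsd7a changed by -0.05 ± 0.085 in Ythdf1-/- cells (adjusted p = 0.728) and by -0.49 ± 0.085 in wild-type cells (adjusted p = 0.00161). The calls of genes outside the Slc symbols were not examined with libraries left out.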

How the data were processed

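Messenger RNA of 8 dendritic cell libraries in 4 groups of 2 was analysed; groups and replicate numbers come from the sample titles. A further 4 immunoprecipitation samples are not analysed here. The deposited table gives log2 values for 11786 genes, read as the authors' regularized logarithm of counts from its name and from DESeq2, which the submitters' processing notes name beside STAR, deepTools and the build mm9. Libraries were stranded poly(A) libraries per the labels' protocols; the sources used here give no counting tool, strand setting or annotation. The depth is unknown, so no counting error is given.

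Symbols came from RefSeq for GRCm38.p6 (11744 matched, 42 not), as did promoters; no coordinate of the authors' build is used. Level per kilobase is the mean log2 level minus the log2 of the longest transcript's length in kilobases. Near-identical genes (Slc28a2 and Slc28a2b; Slc25a5 and its pseudogenes) and overlapping genes are uncertain, since counting could have split their reads.

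Genes with a largest group mean of at least 4 were tested (11785, 1 removed) by limma 3.58.1 under R 4.3.3 (lmFit and trended eBayes; 4 residual and 9.33 prior degrees of freedom), two-sided, in a model of 4 group means; p-values were adjusted by Benjamini-Hochberg over every gene tested, and the threshold was 0.05. The script was tested on simulated data. Figures used Python 3.11.15.

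The genes described, the substrate classes (by family number) and the marker lists were chosen with earlier results of these data known. Genes were named by rule: in each of the 4 comparisons the up to 10 highest rises and deepest falls past the threshold, in each class the gene of the highest level and the 3 of smallest p, and members of a marker list. Some results under this rule are not reported here. Slc3a2, Slc15a3 and Slc1a2 are named for their levels, and Bsg, Emb and the promoters for their changes, after their values were seen; 4 genes whose symbols name no carrier (Slc4a1ap, Slc7a6os, Slc9a3r1, Slc9a3r2) were set apart as a class likewise. Alternatives were blocking on the replicate number, filtering at 6 or not at all, median centring, quantile normalization, other variance models, fitting only the groups compared, thresholds of 0.01 and 0.1, values freed of a spline on transcript GC content and length, and leaving out each library, whereupon the lone library of its group takes the spread of the other groups.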

Additional observations from a re-analysis of the deposited data

How the results depend on the processing

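Of single named calls none changed direction under any alternative: 1873 values stayed on their side of the threshold and 281 no longer passed it. Beside the libraries given with each result, quantile normalization ended the calls of Slc6a6, Slc25a5 and Slc35b1 with lysate in Ythdf1-/- cells, of Slc25a29 with lysate in wild-type cells and of Slc35b1 in Ythdf1-/- cells with lysate. A variance model without trend ended those of Slc6a6, Slc25a5, Slc35b1 and Slc22a23 with lysate in Ythdf1-/- cells, of Slc43a2 with lysate in wild-type cells, of Slc20a1 and Slc35b1 between genotypes with lysate and of Slc20a1 and Slc25a10 without it. A fit of only the groups compared ended those of Slc20a1, Slc25a10, Slc25a38, Slc31a1, Slc33a1 and Slc4a11 between genotypes without lysate, of Slc35b1 with lysate in Ythdf1-/- cells and of Slc43a2 with lysate in wild-type cells, which median centring ended too. A filter at 6 ended that of Slc25a5 with lysate in Ythdf1-/- cells, and values freed of GC content and length those of Slc12a5 and Slc22a17 between genotypes with lysate. Counts of solute carrier calls moved more. At a threshold of 0.01 the counts were 17 for lysate in Ythdf1-/- cells, 18 for lysate in wild-type cells, 9 for Ythdf1-/- with lysate and 20 for Ythdf1-/- without it, against 35, 43, 24 and 39 at 0.05, and at 0.1 Ythdf1-/- with lysate gave 43. Values freed of their dependence on GC content and length gave 57 for lysate in Ythdf1-/- cells, 54 for Ythdf1-/- with lysate, 60 without it and 1 for the difference of the lysate effects. A fit of only the groups compared gave 39 for Ythdf1-/- with lysate and 24 without. Leaving out 1 library at a time gave 12 to 39 for lysate in Ythdf1-/- cells, 16 to 56 for lysate in wild-type cells, 4 to 34 for Ythdf1-/- with lysate, 25 to 39 without it and 0 for the difference. The other alternatives kept each count within 1.5 times; the cause of these shifts was not tested beyond the fewer samples or stricter threshold. The labels do not tell whether equal replicate numbers pair the libraries. The differences of replicate 1 minus replicate 2 had correlations between -0.61 and 0.26 across groups. In the untreated groups these differences followed GC content (rho of 0.62 in Ythdf1-/- cells and -0.70 in wild-type cells), so the correlations cannot decide the pairing. With the replicate block the counts were 25, 38, 16, 33 and 0 in the order above, and 19 named calls no longer passed. These were Slc1a4, Slc6a6, Slc22a15, Slc22a23, Slc25a5 and Slc35b1 for lysate in Ythdf1-/- cells and Slc25a29, Slc26a11 and Slc43a2 for lysate in wild-type cells. Between genotypes they were Slc9a5, Slc16a7, Slc20a1, Slc22a21, Slc31a1, Slc35b1 and Slc39a11 with lysate and Slc20a1, Slc25a10 and Slc25a38 without it. The negative correlation of the untreated groups led to a crossed pairing, chosen after seeing the data, with counts of 54, 64, 46, 52 and 0.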
